A study of Mus musculus with 17 samples.

Results

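Muscle miRNAs were followed in exosomes from mouse feces, a source outside the striated muscle in which these RNAs are mainly made. The set was a fixed list of 10 mature arms of miR-1a, miR-133a, miR-133b, miR-206, miR-208a and miR-208b, taken by name from the 1487 small RNAs (smRNAs) of the deposited count table. Of the 10 arms, 5 were found: mmu-miR-133a-3p, mmu-miR-133b-3p, mmu-miR-206-5p, mmu-miR-208a-3p and mmu-miR-208b-3p, written without the mouse prefix from here on. The other 5, miR-1a-3p, miR-1a-1-5p, miR-1a-2-5p, miR-133a-5p and miR-206-3p, were not analysed here. All libraries came from mice without interleukin 10 (IL-10 KO) on the C57BL/6J background, a strain that develops bowel inflammation, obtained at 4 weeks of age and housed singly. The start-point group had 10 libraries from 10 mice (7 male, 3 female), and the end-point group had 7 libraries (5 male, 2 female) from 6 of the same mice by their labels. End-point libraries 1 and 2 both carried the label of mouse 1. The ages at sampling are not given in the sources used here, and no library of the wild-type strain was analysed here.

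A miRNA is a short RNA that guides the silencing of messenger RNAs, and its seed, bases 2 to 8 from the 5′ end, does most of the target pairing. Genes of miR-1 and miR-133 lie side by side and are transcribed together in heart and skeletal muscle, where miR-1 promotes differentiation and miR-133 favours proliferation of myoblasts. The pair of miR-206 and miR-133b is found mainly in skeletal muscle. The genes of miR-208a, miR-208b and miR-499 sit inside myosin heavy chain genes, and miR-208a is the cardiac one, expressed with Myh6.

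The mature sequences show which arms were counted and how close the relatives are, since reads of near-identical miRNAs can be assigned to the wrong one. They are RefSeq sequences on GRCm38.p6, 5′ to 3′, with the seed in capitals. RefSeq entries matched 6 of the 10 listed arms and 4 of the 5 found, and miR-133a-3p is named only.
miR-208a-3p: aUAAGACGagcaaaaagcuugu
miR-208b-3p: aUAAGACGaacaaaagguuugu
miR-499-5p: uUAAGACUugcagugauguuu
miR-133b-3p: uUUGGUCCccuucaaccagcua
miR-133b-5p: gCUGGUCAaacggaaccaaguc
miR-206-5p: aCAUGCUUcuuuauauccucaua
miR-1a-1-5p: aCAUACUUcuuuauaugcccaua

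The seeds of miR-208a-3p and miR-208b-3p are the same, and miR-499-5p, which is outside the list, differs from them in the last seed base. Over the 22 bases, miR-208b-3p differs from miR-208a-3p at 3 positions outside the seed, counted from 1 at the 5′ end: G10A, A16G and C18U. Of 1254 table miRNAs with a RefSeq sequence, miR-208b-3p was the 1 other that shared the miR-208a-3p seed, and none shared that of miR-133b-3p or miR-206-5p. The relatives miR-133a-3p and miR-133c had no RefSeq sequence and were not compared. Whether they share the miR-133b-3p seed is therefore not answered by this count. The listed arm miR-1a-1-5p differs from miR-206-5p at 3 of 23 positions, G5A inside the seed and C17G and U19C outside it.

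Mir206 (chromosome 1, 20679010 to 20679082) and Mir133b (chromosome 1, 20682769 to 20682887) are 3686 bases apart on GRCm38.p6, and both overlap an annotated exon of the long noncoding RNA gene Gm28653. Mir208a (chromosome 14, 54949060 to 54949142) lies in an intron of Myh6, and Mir208b (chromosome 14, 54975700 to 54975776) in an intron of Myh7, 26557 bases away. These are the cardiac alpha and beta myosin heavy chain genes. Mir499 (chromosome 2, 155622880 to 155622958) is in an intron of Myh7b. The arm miR-133a-3p is produced by Mir133a-2 on chromosome 2 and Mir133a-1 on chromosome 18, so no single position applies.

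Library totals ran from 87527 to 178075 counts at the start-point and from 32320 to 161862 at the end-point. A floor of 3 counts corresponded to 16.8 to 92.8 CPM, the unit of level used below, which is the deposited count scaled to the library total (counts per 1000000). Totals under 75000 counts occurred in end-point libraries 1, 3 and 7 alone, and the other 4 end-point libraries, with 116880 to 161862 counts, lay inside the start-point range. Start-point libraries 1, 6 and 7, all male, were closest to one another over the 1270 smRNAs tested. Their Spearman correlations of TMM-scaled log2 CPM were 0.86 to 0.89 with one another and 0.38 to 0.68 with the other start-point libraries. Among themselves the other start-point libraries gave 0.53 to 0.84, which overlaps the latter range. Nothing in the labels sets libraries 1, 6 and 7 apart, and results that rest on them are given with and without them. In bulk material of this kind fewer cells of a type and less RNA per cell cannot be told apart.

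The 5 arms together made up a small share of the counts. Their summed share was 0.0786 to 0.569% at the start-point, with a median of 0.194%, and 0.0752 to 0.182% at the end-point, with a median of 0.156%. As summed levels, the median was 1937 CPM in all 10 start-point libraries, 1337 CPM (786 to 2148 CPM) without libraries 1, 6 and 7, and 1557 CPM at the end-point, so the direction between the medians turned without those 3. The lowest share, in end-point library 7, had a 95% Wilson interval of 0.0567 to 0.0996%, and the highest, in start-point library 6, 0.523 to 0.619%. Such intervals and floors cover counting error only. By mean CPM over the 17 libraries, miR-133b-3p stood at place 292 of 1487 smRNAs, miR-206-5p at 351, miR-133a-3p at 491, miR-208a-3p at 532 and miR-208b-3p at 1249. Their mean levels were 649, 539, 374, 339 and 90.7 CPM. The ranges of the first 4 overlapped within each time point. Within libraries, miR-133b-3p was above miR-133a-3p in 17 of 17.

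End-point libraries were compared with start-point libraries to ask which of these RNAs differ between the time points. The labels used here give no state of the bowel at either, and age and the course of inflammation cannot be told apart. Of the 5 arms, 2 fell, miR-208a-3p and miR-133a-3p, and 3 did not pass the test. Across all 1270 smRNAs tested, 33.7% were called at an adjusted p under 0.05 by edgeR's quasi-likelihood test, with 17.4% higher and 16.3% lower, so 2 calls among 5 is near the background. The median log2 fold change of the 5 was -0.89, beside -0.18 over all smRNAs tested. Of the 428 smRNAs called, 221 were higher and 207 lower. With library totals in place of TMM factors the median over all smRNAs moved to -0.65 and the calls to 153 higher and 327 lower, or 37.8%, and the same 2 arms were called. With mouse as a block, 8.19% of smRNAs were called and 0 of the 5 arms. The plot of levels by library shows the 5 arms, and no arm separated the time points completely: 0 of 5 had groups without overlap, where 5.12% of smRNAs did so with lower and 0.472% with higher end-point values.

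**Figure D1:**
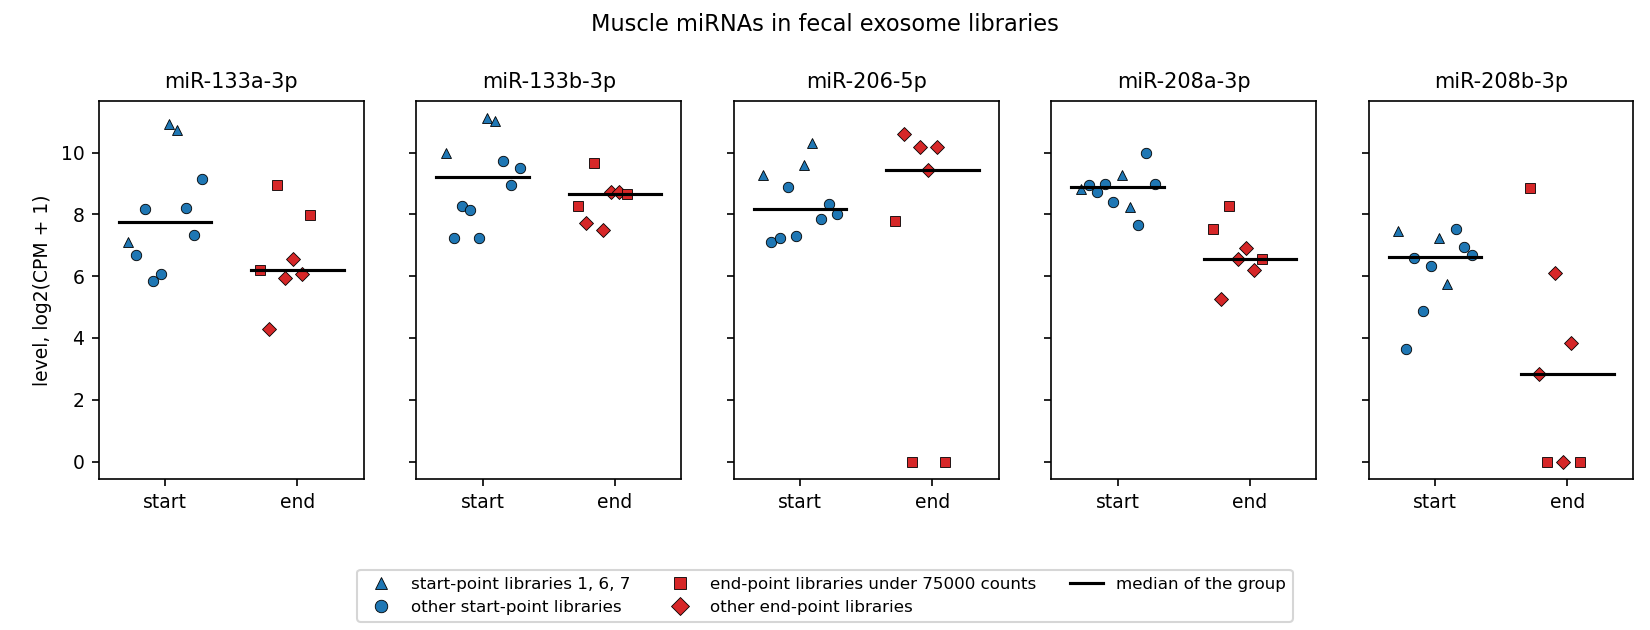
Level of each of the 5 muscle miRNA arms in every library, as log2(CPM + 1) on the vertical axis, with start-point libraries (n = 10, blue) and end-point libraries (n = 7, red) on the horizontal axis and the median as a bar. Triangles are start-point libraries 1, 6 and 7 and squares are end-point libraries under 75000 counts. On this scale without TMM factors, 6 of the 7 end-point libraries lie below the lowest start-point library for miR-208a-3p. For miR-206-5p, 2 of the 3 shallow end-point libraries are at 0.

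The heart-enriched miR-208a-3p fell between the time points. Its level at the start-point was lowest at 200 CPM, with a median of 471 CPM and a highest value of 1022 CPM. At the end-point it ran from 37.1 CPM through a median of 94.1 CPM to 309 CPM. Of the 7 end-point libraries, 6 lay below the lowest start-point library and the exception was library 3, the shallowest, at 309 CPM from 10 counts. That count is on CPM without TMM factors. The factor was 1.48 in start-point library 8, the lowest, and 0.42 to 0.75 in end-point libraries 2, 4, 5 and 6. With TMM scaling fewer end-point libraries lie below it. Each start-point library held at least 25 counts of miR-208a-3p, and each end-point library 6 to 14.

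The log2 fold change of miR-208a-3p was -1.62 ± 0.36 (SE), with an edgeR adjusted p of 0.0017. It was lower at the end-point in 6 of 6 mice with both time points, 4 males and 2 females. Directions within mice, here and below, are on CPM without TMM factors. With mouse as a block the size was similar, -1.46 ± 0.49 (SE), but the edgeR adjusted p was 0.077. The call held without the 3 libraries under 75000 counts (-1.55, adjusted p 0.00852), without start-point libraries 1, 6 and 7 (-1.46, adjusted p 0.00845) and without any single library. These p-values are from edgeR as well.

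The related miR-208b-3p, which comes from the gene of the slow-fibre and fetal heart myosin, was near the limit of detection. Start-point libraries held 11.4 to 184 CPM with a median of 97.7 CPM, from 1 to 27 counts. End-point libraries held 0 to 457 CPM with a median of 6.18 CPM, and 5 of 7 had 3 counts or fewer. The range at the end-point therefore enclosed that of the start-point, because library 1, one of the shallow ones, held 25 counts.

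The log2 fold change of miR-208b-3p was -0.30 ± 0.82 (SE), with an edgeR adjusted p of 0.802. Its filter on low counts, which needed 7 libraries, was met through 7 start-point libraries, with 1 end-point library over the cutoff. It was lower in 5 of 6 mice on CPM. TMM factors turn mouse 5 (78.6 to 68.4 CPM) to higher. They also turn mouse 1 (174 to 231 CPM, its 2 end-point libraries averaged) to lower. With mouse as a block the log2 fold change of miR-208b-3p was -2.13 ± 1.17 (SE), with an edgeR adjusted p of 0.244. Without end-point library 1 it was -1.74, with an edgeR adjusted p of 0.12. At the start-point miR-208a-3p exceeded miR-208b-3p in 10 of 10 libraries, and at the end-point in 6 of 7. Of the 4 deeper end-point libraries, 2, 5 and 6 held 1, 0 and 2 counts of miR-208b-3p, under the floor of 3 counts, and library 4 held 8.

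The third miRNA lodged in a myosin gene, miR-499-5p, is not one of the 10 arms and was described from the list of other striated-muscle miRNAs. It was at 29.2 to 880 CPM at the start-point, with a median of 199 CPM, and at 0 to 51.3 CPM at the end-point, with a median of 15.7 CPM. Counts at the end-point were 0 to 6. The groups overlapped, since start-point libraries 4, 6 and 7 held 29.2 to 42.9 CPM.

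The log2 fold change of miR-499-5p was -2.91 ± 0.79 (SE), with an edgeR adjusted p of 0.00603, and -2.68 with an edgeR adjusted p of 0.0965 with mouse as a block. It was lower in 5 of 6 mice. It passed the filter on low counts through 7 start-point libraries and 0 end-point libraries, so a difference was built into its being tested. In start-point libraries 1, 6 and 7 it stood at 29.2 to 96.8 CPM, against a median of 242 CPM in the other 7. Without those 3 libraries, in male libraries only, and without start-point library 1, 2, 3, 5, 8, 9 or 10 alone, it did not pass the filter and was not tested. In the other 10 fits without 1 library it was called.

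The miR-133 arms ranged widely at the start-point. The level of miR-133a-3p there ran from 56.2 CPM through a median of 226 CPM to 1922 CPM. At the end-point it ran from 18.5 CPM through a median of 73.1 CPM to 495 CPM. Start-point libraries 6 and 7 were the highest, at 1922 and 1703 CPM, while start-point library 1, of the same set, was at 135 CPM. The groups overlapped, with 1 of 7 end-point libraries below the lowest start-point library.

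The log2 fold change of miR-133a-3p was -1.94 ± 0.74 (SE), with an edgeR adjusted p of 0.0446, close to the threshold. Its filter on low counts, which needed 7 libraries, was met through 8 start-point libraries, with 3 end-point libraries over the cutoff. It was lower in 4 of 6 mice on CPM, of which mouse 5 (65.5 to 59.9 CPM) turns with TMM factors. With mouse as a block its log2 fold change was -0.73 ± 0.68 (SE), with an edgeR adjusted p of 0.51. Without start-point libraries 1, 6 and 7 it was -0.12, with an edgeR adjusted p of 0.892. The call was also lost when single libraries were left out: start-point library 6 (-1.43, adjusted p 0.114), 7 (-1.34, 0.13) or 8 (-1.95, 0.0512), and end-point library 1, 2, 4, 5, 6 or 7, with edgeR adjusted p from 0.0576 to 0.0826.

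The close relative miR-133b-3p was more abundant. It was at 149 to 2223 CPM at the start-point, with a median of 606 CPM, and at 180 to 804 CPM at the end-point, with a median of 407 CPM. The end-point range lay wholly inside the start-point range. Start-point libraries 1, 6 and 7 held 1019 to 2223 CPM, and the other 7 held 149 to 841 CPM.

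The log2 fold change of miR-133b-3p was -0.89 ± 0.57 (SE), with an edgeR adjusted p of 0.233, and with mouse as a block it was -0.35 ± 0.60 (SE), with 0.741. Without start-point libraries 1, 6 and 7 its direction turned, to 0.59 with an edgeR adjusted p of 0.266. In every one of the 17 libraries miR-133b-3p had more counts than miR-133a-3p. The share of miR-133a-3p in the sum of the pair had a median of 35.6% at the start-point and 19.0% at the end-point. How reads common to both were assigned is not given in the sources used here, so the pair was also summed: the log2 fold change was then -1.22 ± 0.62 (SE), with an edgeR adjusted p of 0.126.

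**Figure D2:**
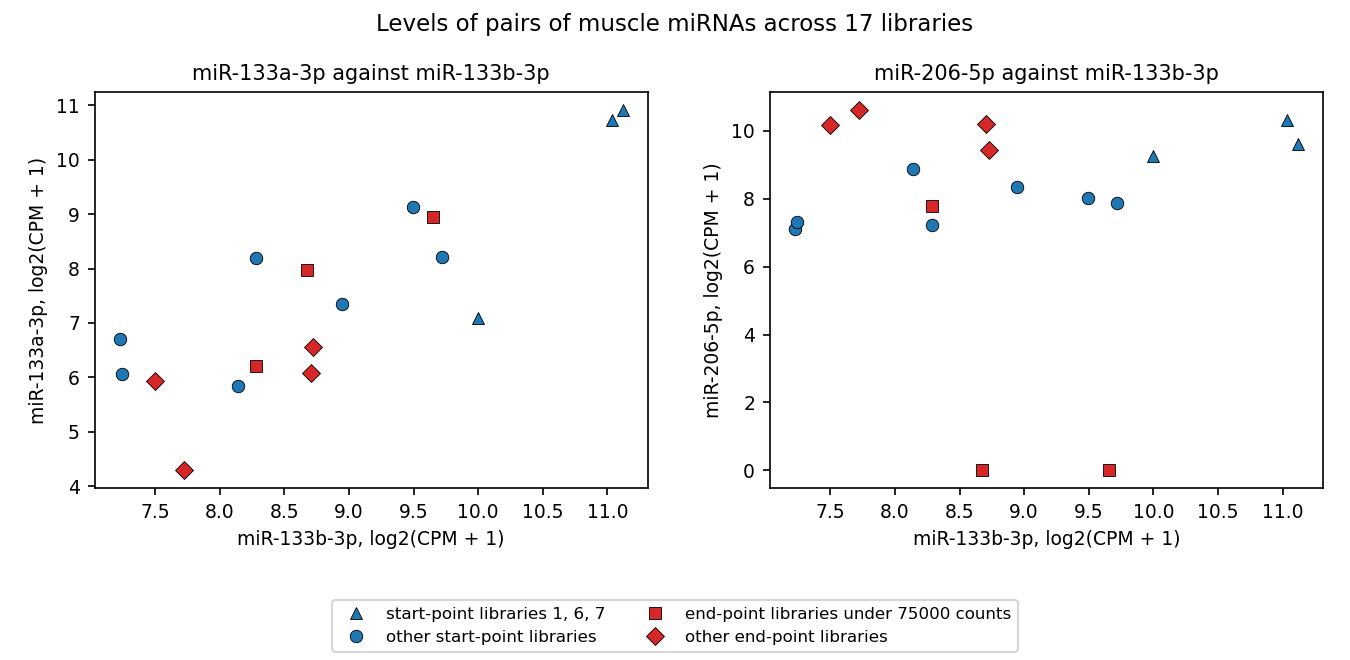
Level of miR-133a-3p (left) and of miR-206-5p (right) against that of miR-133b-3p in the 17 libraries, as log2(CPM + 1) on both axes, with the symbols marking start-point libraries 1, 6 and 7, the other start-point libraries, the end-point libraries under 75000 counts and the other end-point libraries. The miR-133 arms rise together, whereas miR-206-5p follows miR-133b-3p among start-point libraries and not among end-point libraries.

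Correlations were computed for the 10 pairs of arms on log2(CPM + 1), with permutation p-values adjusted over the 10. The pair miR-133a-3p and miR-133b-3p gave Pearson's r of 0.833 and Spearman's rho of 0.782 over 17 libraries, with adjusted permutation p of 0.0001 and 0.0028. The first is the smallest that the resampling can give. Leaving out the 2 libraries farthest from the median of miR-133a-3p gave r of 0.663. Within time points rho was 0.806 at the start-point (n = 10, adjusted permutation p 0.0448) and 0.786 at the end-point (n = 7, adjusted exact permutation p 0.238). With TMM-scaled CPM rho was 0.544, with an adjusted permutation p of 0.195, and without start-point libraries 1, 6 and 7 it was 0.719, with 0.0509. Both values share a library total and, for this pair, a family whose reads can be hard to separate.

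Arms of the neighbouring genes Mir206 and Mir133b did not move together throughout. For miR-206-5p and miR-133b-3p, rho was 0.794 at the start-point (n = 10, adjusted permutation p 0.0448), where both were highest in libraries 1, 6 and 7. Pearson's r was 0.823 there, with an adjusted permutation p of 0.0206. At the end-point rho was -0.487 and r -0.690 (n = 7, adjusted exact permutation p 0.378 and 0.22). Over all 17 libraries rho was 0.20 and r 0.0194, with adjusted permutation p of 0.49 and 0.944. The difference between the time points was not tested. Of the other 8 pairs, none passed over all libraries, at the start-point or at the end-point by Spearman's rho. The most negative was miR-206-5p with miR-133a-3p at the end-point, with rho of -0.919 and r of -0.892 (n = 7, adjusted exact permutation p 0.0714 and 0.0317). Its poles were end-point libraries 3 and 7, with 495 and 251 CPM of miR-133a-3p and 0 counts of miR-206-5p.

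The 5p arm of miR-206, the passenger strand of a skeletal-muscle miRNA, was the 1 arm with a positive fold change. It was at 137 to 1271 CPM at the start-point with a median of 291 CPM, and at 0 to 1551 CPM at the end-point with a median of 692 CPM. End-point libraries fell into a high and a low set: the 4 deeper ones held 692 to 1551 CPM, while libraries 3 and 7 held 0 counts and library 1 held 219 CPM. At their depth 0 counts allow up to 92.8 CPM in library 3 and 47.0 CPM in library 7, below the lowest start-point library.

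The log2 fold change of miR-206-5p was 1.46 ± 0.83 (SE), with an edgeR adjusted p of 0.18, and it was higher in 3 of 6 mice. Without the 3 libraries under 75000 counts it rose by 2.38 with an edgeR adjusted p of 0.00743, where 33.6% of all smRNAs were called. Without start-point libraries 1, 6 and 7 it was 2.66 with an edgeR adjusted p of 0.0384, where 28.3% were called. Those 3 held its highest start-point levels, 613 to 1271 CPM, against 137 to 472 CPM in the other 7. The libraries under 75000 counts held its lowest end-point levels, 0 to 219 CPM. Leaving out either set therefore raises the fold change of miR-206-5p, and these 2 calls are no separate evidence of a rise. With mouse as a block the log2 fold change of miR-206-5p was 0.32 ± 1.55 (SE), with an edgeR adjusted p of 0.911. With library totals in place of TMM factors it was 0.70, and without end-point library 2 it was 0.77, so its size rested on the scaling and on 1 library. The part of depth in this split was not tested.

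**Figure D3:**
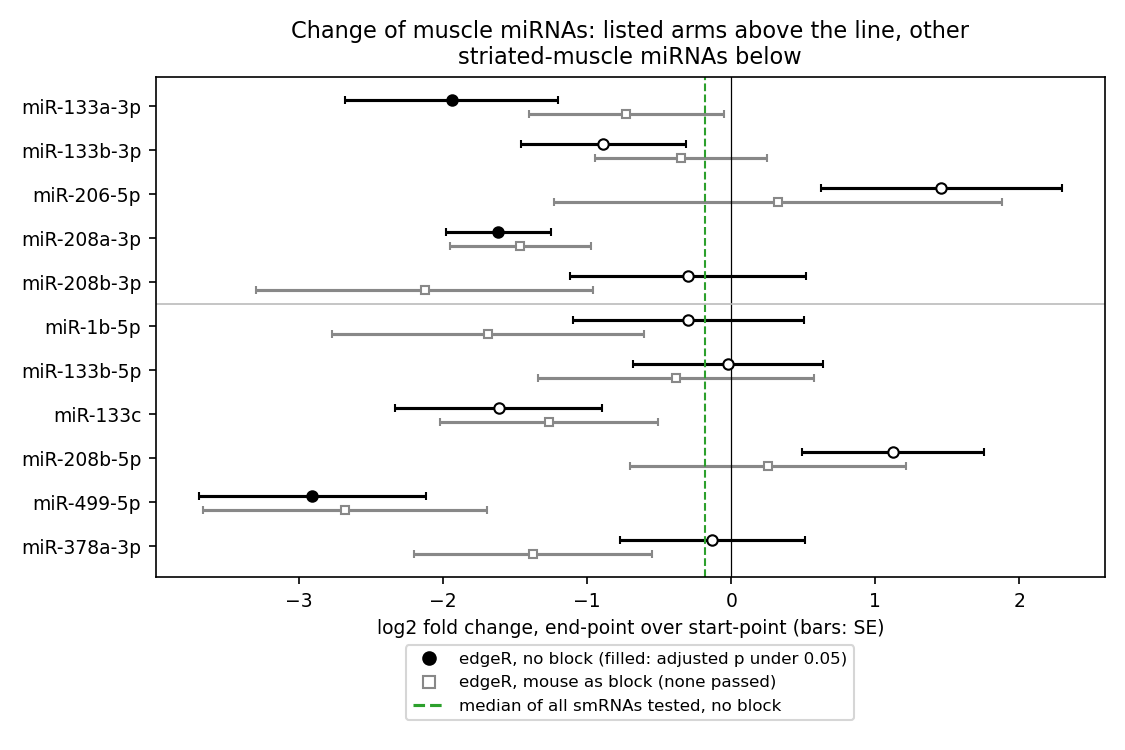
Log2 fold change of end-point over start-point libraries with its standard error, for the 5 listed arms (above the line) and the 6 other striated-muscle miRNAs that were tested (below it), without a block (circles) and with mouse as a block (squares). Filled circles mark miR-133a-3p, miR-208a-3p and miR-499-5p, the 3 called without the block, and no square is filled. The dashed line is the median of all smRNAs tested, -0.18.

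Of the other striated-muscle miRNAs, 1 was called, a share near the 16.3% of all smRNAs called lower. Of the 10 listed, 8 were in the table and 6 passed the filter, of which 0 were called higher and 1, miR-499-5p, lower, with a median log2 fold change of -0.22. With mouse as a block 0 of the 6 were called. The most abundant were miR-378a-3p, linked to mitochondrial metabolism and its host gene Ppargc1b, at a mean of 4333 CPM, and miR-133c at 2025 CPM. Neither was called by edgeR. The log2 values were -0.13 ± 0.64 (SE) for miR-378a-3p (adjusted p 0.889) and -1.61 ± 0.72 (SE) for miR-133c (adjusted p 0.0828).

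Mir133c lies in an intron of Med27 on chromosome 2, away from the other miR-133 genes. The level of miR-133c exceeded that of miR-133b-3p in 10 of 10 start-point and 5 of 7 end-point libraries. It was at 504 to 12122 CPM at the start-point with a median of 1279 CPM, and at 355 to 1217 CPM at the end-point with a median of 743 CPM. The groups overlapped, and start-point libraries 1, 6 and 7 held 3618 to 12122 CPM against 504 to 1673 CPM in the other 7. It was lower in 6 of 6 mice on CPM, but TMM factors turn that direction in mice 5 and 11. Mouse 5 went from 504 to 445 CPM, with factors of 1.04 and 0.56. Mouse 11 went from 1283 to 846 CPM, with factors of 1.67 and 1.08. Without start-point libraries 1, 6 and 7 the log2 fold change of miR-133c turned to 0.33, with an edgeR adjusted p of 0.627. With library totals only (-1.92, adjusted p 0.017) and without end-point library 2 (-2.23, adjusted p 0.0285) edgeR called it lower.

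The opposite arms were also present for 3 of the genes on the list. For Mir208b the 5p arm outnumbered the listed 3p arm in 10 of 10 start-point libraries and 6 of 7 end-point libraries. For Mir133b the listed 3p arm outnumbered the 5p arm in 9 of 10 and 7 of 7 libraries. For Mir208a the 3p arm outnumbered the 5p arm in 9 of 10 and 7 of 7, and the exception was start-point library 10. Counts of miR-208b-5p were 150 and 141 in end-point libraries 3 and 7, the libraries with 0 counts of miR-206-5p and of miR-208b-3p.

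**Figure D4:**
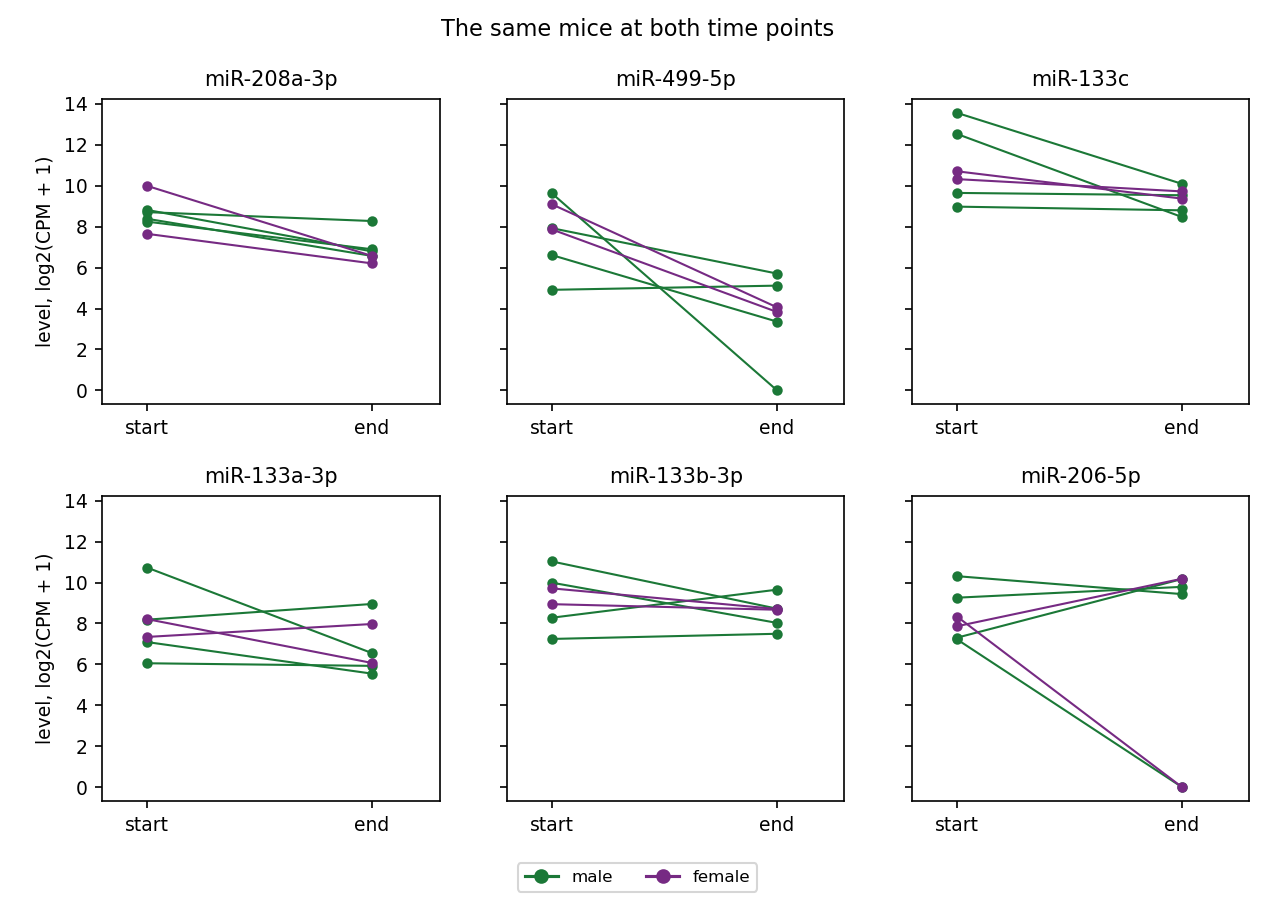
Level of 6 muscle miRNAs at the start-point and end-point of the 6 mice that had both, as log2(CPM + 1), with male mice in green and female mice in purple and the 2 end-point libraries of mouse 1 averaged. The lines of miR-208a-3p and miR-133c go down in 6 of 6 mice, those of miR-499-5p in 5 of 6, those of miR-133a-3p and miR-133b-3p in 4 of 6 and those of miR-206-5p in 3 of 6. The levels are without TMM factors, which turn miR-133a-3p in mouse 5, miR-133b-3p in mouse 11 and miR-133c in both mice.

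Female and male libraries were compared with time point as a covariate. Sex is a trait of the mouse, and the 17 libraries of 10 mice were taken as independent, with no block on mouse. Libraries of the same mouse thus counted as separate replicates in the p-values below. Of 1462 smRNAs tested, 0 were called by edgeR, or 0%, with 140 at an unadjusted p under 0.05, and 0 of the 5 arms. All 5 arms were lower in females by the fitted value, from -0.55 ± 0.38 (SE) for miR-208a-3p to -1.43 ± 0.96 (SE) for miR-206-5p, with edgeR adjusted p of 0.649 to 0.766. Without start-point libraries 1, 6 and 7, which are all male, miR-133a-3p and miR-133b-3p turned to 0.54 and 0.58. DESeq2 called 35 smRNAs, of which 0 were among the arms. At the start-point miR-208a-3p had a median of 452 CPM in 7 male and 505 CPM in 3 female libraries, and the groups overlapped.

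Lists of miRNAs named for other sources were measured beside these arms, and how specific each is to its source was not tested. The 3 smooth-muscle arms found, of miR-143 and miR-145a, summed to 204 to 1404 CPM at the start-point and 1027 to 12136 CPM at the end-point, and 2 of 3 were called higher. Over all smRNAs 17.4% were called higher. The 2 were miR-143-3p (2.87) and miR-145a-3p (5.90), as log2 fold changes with edgeR adjusted p of 0.000585 and 8.08e-07. With mouse as a block both were still called, at 2.50 and 4.70 (edgeR adjusted p 0.048 and 0.0138), where 8.19% of all smRNAs were. The call of miR-143-3p was lost in 2 of 16 alternatives. The third, miR-145a-5p, was at -0.26 (edgeR adjusted p 0.761), with medians of 113 CPM at the start-point and 18.5 CPM at the end-point. The 3 red-cell arms found summed to 263 to 1064 CPM and 49.4 to 767 CPM, and of the 2 tested, miR-486a-5p (-1.27) and miR-486b-5p (0.65), neither was called. Most of this sum was miR-486. Mean levels of miR-486a-5p, miR-486b-5p and miR-451a were 417, 126 and 6.54 CPM at the start-point. At the end-point these means were 170, 118 and 90.0 CPM. The red-cell marker miR-451a, named after its values were seen, had 0 counts in 8 of 10 start-point libraries and 3 of 7 end-point libraries. Its highest level was 38.4 CPM at the start-point and 338 CPM at the end-point, where the median was 67.5 CPM and 4 of 7 libraries lay above every start-point library. The 9 intestinal-epithelium arms found summed to 3778 to 19932 CPM and 3032 to 38181 CPM, with 3 called higher and 4 lower, where 33.7% of all smRNAs were called. With mouse as a block 0 were called higher and 2 lower. Their most abundant, miR-200b-3p (3.28) and miR-375-3p (-2.30), had edgeR adjusted p of 0.026 and 0.0213, and the calls were lost without end-point library 2 (1.38, 0.291) and end-point library 7 (-1.97, 0.0595). With mouse as a block miR-200b-3p was at 0.55 (edgeR adjusted p 0.835) and miR-375-3p at -2.37 (0.0465). The part of these sources in the levels of the muscle arms was not tested.

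The smRNAs with the most similar pattern were found for the 2 most abundant arms among the 1265 tested smRNAs outside the list, by Spearman correlation over the 17 libraries. For miR-133b-3p these were miR-7683-3p (0.814), miR-7055-3p (0.806) and miR-664-5p (0.765). Within end-point libraries alone the values were 0.964, 0.464 and 0. For miR-206-5p they were miR-465b-5p (0.939), miR-7094-3p (0.926) and miR-7063-3p (0.881), and within end-point libraries alone 0.964, 0.891 and 0.70. None of the 6 is on the muscle lists. These points share library totals and depth, and the correlations are descriptions.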

How the data were processed

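Small RNA was sequenced from exosomes precipitated from mouse feces, and 17 libraries were compared. The authors deposited 1 table of raw read counts per smRNA, with no normalization, for 1439 mature miRNAs and 48 piRNA loci. The submitters' processing notes name bcl2fastq and GRCm38, and the aligner, the counting, the annotation version and the use of molecular identifiers are not given in the sources used here. Every row named an smRNA. CPM was computed as counts over the library total, without TMM.

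End-point and start-point libraries were compared with edgeR 4.0.16 in R 4.3.3 (TMM, filterByExpr with group sizes, quasi-likelihood test without the legacy method, Benjamini-Hochberg adjustment, threshold 0.05). The filter asked for 76.8 CPM in 7 libraries. Start-point and end-point libraries over it were 8 and 3 for miR-133a-3p and 7 and 1 for miR-208b-3p. They were 10 and 5 for miR-208a-3p and for miR-206-5p, and 10 and 7 for miR-133b-3p. Sex was tested with time point as a covariate. Alternatives used DESeq2 1.42.0, limma 3.58.1, other scalings and filters, mouse as a block, and fewer libraries. Those without start-point libraries 1, 6 and 7, with the legacy method, with end-point library 2 as mouse 2 and with miR-133c summed were chosen after seeing the data. The members and lists were chosen with earlier results of these data known. By rule the text names every listed arm found, the 2 most abundant of each further list, and the 3 smRNAs most like each of the 2 most abundant arms. Outside it, miR-499-5p, miR-451a, miR-145a-5p and the opposite arms of Mir133b, Mir208a and Mir208b were named after their values were seen.

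The mouse labels pair the samples. Deviations from the group means correlated within the 7 pairs of the 6 mice at a mean of 0.094 (-0.072 to 0.26). On simulated counts for 1206 smRNAs with 200 changed, 87.4% of the changed and tested smRNAs were recovered with 4.2% false calls for time point, and 81% with 1.8% for sex. The simulation used a common dispersion and planted changes of fixed size, with no mouse effect and no subgroup of libraries. These rates hold for that setting and are not error rates of the real comparison. Correlations used log2(CPM + 1) and 100000 permutations, or all permutations at n = 7. Planned correlations with miR-206-3p and miR-1a-3p were not run, and all 10 pairs of found arms were added after seeing the data.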

Additional observations from a re-analysis of the deposited data

Results flagged for a closer look

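Of 16 tests for 1 library far from the rest of its group, run on CPM, 5 passed, each for a high value. The critical values pass about 1 in 20 by chance for normally distributed values only. These CPM were skewed, so the 5 are not shown to exceed chance. End-point library 3, the shallowest, held 804 CPM of miR-133b-3p, and the next highest end-point library held 422 CPM. Start-point library 9 held 1022 CPM of miR-208a-3p, and the next held 623 CPM. End-point library 1 held 457 CPM of miR-208b-3p, and the next held 68.4 CPM. Among the related miRNAs, start-point library 1 held 12122 CPM of miR-133c, with 5930 CPM in the next, and end-point library 4 held 11148 CPM of miR-378a-3p, with 4238 CPM in the next.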

How the results depend on the processing

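The fall of miR-208a-3p kept its direction in 16 of 16 alternatives and its call in 13, and lost the call in the 3 fits with mouse as a fixed block (adjusted p 0.0599 to 0.115). The call of miR-133a-3p was lost in 9 of 14. Against 428 smRNAs called, the mouse block gave 104, the block without the second library of mouse 1 gave 85, the block with that library as mouse 2 gave 114, and male libraries only gave 211. Leaving out 1 library gave 365 to 463. Of the 2 arms called, 0 were called in those 3 fixed blocks and 1 with limma-voom, with mouse as a random block, in males only and with the legacy edgeR method. Without start-point libraries 1, 6 and 7, and without libraries under 75000 counts, the count was 2 with other arms: miR-208a-3p lower and miR-206-5p higher, and miR-133a-3p not called. Leaving out 1 library gave 1 to 2. For sex, library totals gave 1 call and DESeq2 35.

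Directions turned as follows, as log2 fold changes, and the causes were not tested. Without start-point libraries 1, 6 and 7 they were 0.59 for miR-133b-3p, 0.33 for miR-133c and 0.072 for miR-378a-3p, and for sex 0.54 for miR-133a-3p and 0.58 for miR-133b-3p. The block gave 0.061 for miR-133b-3p with end-point library 2 as mouse 2, and, without that library, -0.83 for miR-206-5p and -0.61 for miR-200b-3p. Males only gave 0.10 for miR-208b-3p and 0.094 for miR-378a-3p. For miR-378a-3p the value was 0.60 without libraries under 75000 counts, and single libraries left out gave -1.35 to 0.22. Library totals gave -0.066 for miR-486b-5p. Spearman's rho turned to -0.075 for miR-133b-3p with miR-206-5p without start-point libraries 1, 6 and 7, to 0.016 for miR-206-5p with miR-208a-3p on TMM-scaled CPM, and to -0.31 for miR-206-5p with miR-208b-3p without libraries under 75000 counts. In the shallowest library 3 counts are 92.8 CPM, which limits miR-208b-3p and miR-499-5p.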
